A study of Mus musculus with 31 samples.

Results

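The Schlafen genes are a family of growth-regulatory and antiviral genes, and 7 of them, Slfn1, Slfn2, Slfn3, Slfn4, Slfn5, Slfn8 and Slfn9, were followed in mouse bone marrow-derived macrophages. They are 7 of 35275 gene identifiers in the first of 2 RNA-seq experiments and 7 of 54532 in the second. The members were taken by name, and the family was chosen by the log2 fold change of Slfn4 with BRD9 compounds, which placed it among the genes these compounds lowered most. For that reason the fold changes of the family with each compound against its own control in experiment 1 are descriptions, with no test. The same holds in experiment 1 for the 2 compounds set against each other and for the interactions with dexamethasone, which are built from those fold changes. The contrasts of each compound with vehicle, which share the compound libraries with the choice of Slfn4, and those of experiment 2 were tested for the remaining 6 members, and the responses to LPS, interferon γ and dexamethasone were tested for all 7. The macrophages came from C57BL/6J males of 6 to 12 weeks and were grown in medium conditioned by L-929 cells, a source of macrophage growth factor. No genotype differed between the groups.

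Experiment 1 held 7 groups of 3 libraries. Macrophages were left overnight with dexamethasone and iBRD9, dexamethasone and dBRD9, iBRD9, dBRD9, dexamethasone, or vehicle, and then received LPS at 100 ng/ml for 3 hours, and a further group got vehicle alone. Dexamethasone (Dex), a synthetic glucocorticoid that acts through the glucocorticoid receptor, was used at 1 µM. iBRD9, an inhibitor of the bromodomain of BRD9, was used at 3 or 10 µM, and which of these doses a library had is not given in the sources used here. dBRD9, a compound that causes BRD9 to be degraded, was used at 250 nM. Experiment 2 held 5 groups of 2 libraries, labelled Dex + dBRD9 + IFNγ + LPS, dBRD9 + IFNγ + LPS, Dex + IFNγ + LPS, IFNγ + LPS and vehicle, with the dose and timing of interferon γ (IFNγ) not stated. Nothing in the labels says that libraries of a group came from separate animals or cultures, so p-values measure only the spread between these libraries.

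BRD9 is the bromodomain subunit that marks the non-canonical BAF chromatin remodelling complex, and LPS, a component of bacterial outer membranes, activates macrophages through TLR4. That activation includes the production of interferon β, which acts back on the cells through its own receptor, and many Schlafen genes are known as interferon-induced genes. Mouse Schlafen proteins are sorted by length into a short group (Slfn1 and Slfn2), an intermediate group (Slfn3 and Slfn4) and a long group with an added helicase-like region (Slfn5, Slfn8 and Slfn9). Slfn1 and Slfn2 were described in T cells, where Slfn2 is needed for quiescence, and Slfn4 is known as a gene induced during macrophage activation.

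All 7 genes lie in 1 cluster on chromosome 11 (GRCm38). Slfn5 (ENSMUSG00000054404) spans 82951349 to 82964840 on the plus strand, Slfn9 (ENSMUSG00000069793) 82978390 to 82991830 on the minus strand and Slfn8 (ENSMUSG00000035208) 83002158 to 83020810 on the minus strand. Farther along are Slfn2 (ENSMUSG00000072620) at 83065112 to 83070678, Slfn1 (ENSMUSG00000078763) at 83116849 to 83122670, Slfn4 (ENSMUSG00000000204) at 83175186 to 83190216 and Slfn3 (ENSMUSG00000018986) at 83191330 to 83215154, all on the plus strand. Each is annotated as protein coding. The pseudogene Slfn10-ps lies between Slfn8 and Slfn2.

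The bases before the transcription starts are shown because of a contrast in experiment 1. Slfn1 and Slfn4 moved much alike there (Pearson r of log2 levels, 0.925), while Slfn2, a neighbour with a shared promoter stretch, did not (0.409 with Slfn1). Slfn1 ran closer still to Slfn9 (0.963), whose window lacks that stretch. In experiment 2, which had no iBRD9 group, the correlations did not show this contrast, with Slfn1 at 0.946 with Slfn4 and 0.941 with Slfn2. The genes still parted in level there. In Dex + dBRD9 + IFNγ + LPS the level above vehicle, as a share of that with IFNγ + LPS, was 92.6% for Slfn2. It was 23.6% for Slfn1 and 9.26% for Slfn4. RefSeq (GRCm38.p6) gave a window of 250 bases before the start for each of the 7 members, with 2 starts for Slfn8, so 8 windows in all. The windows of Slfn1, Slfn2, Slfn3 and Slfn4 held a common run of 9 bases, ACTTCCTGG, which contains the GGAA core of ETS factors on the opposite strand. The run began at positions -74 in Slfn1, -55 in Slfn2, -42 in Slfn3 and -73 in Slfn4, counted back from the start, and it was found in 0.7% of the 32851 promoter windows searched. Slfn1 and Slfn4 shared a longer run of 15 bases around it, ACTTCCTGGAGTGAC. In the sequences below, written 5′ to 3′ on the strand of each gene, capitals mark that run of 9 bases and the motifs of interferon regulatory factors (IRF) and interferon response elements described after them.
Slfn1 (chr11:83116570-83116819, plus strand): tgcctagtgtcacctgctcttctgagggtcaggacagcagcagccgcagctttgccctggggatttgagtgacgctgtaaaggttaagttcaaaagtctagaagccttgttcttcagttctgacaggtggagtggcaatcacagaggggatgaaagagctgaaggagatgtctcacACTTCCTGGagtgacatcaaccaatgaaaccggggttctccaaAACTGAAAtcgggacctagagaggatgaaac
Slfn2 (chr11:83064862-83065111, plus strand): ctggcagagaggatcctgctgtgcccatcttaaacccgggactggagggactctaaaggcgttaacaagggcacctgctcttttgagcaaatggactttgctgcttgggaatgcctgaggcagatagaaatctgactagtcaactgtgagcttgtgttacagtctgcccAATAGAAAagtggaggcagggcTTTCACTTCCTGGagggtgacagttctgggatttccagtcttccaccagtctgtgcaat
Slfn4 (chr11:83174936-83175185, plus strand): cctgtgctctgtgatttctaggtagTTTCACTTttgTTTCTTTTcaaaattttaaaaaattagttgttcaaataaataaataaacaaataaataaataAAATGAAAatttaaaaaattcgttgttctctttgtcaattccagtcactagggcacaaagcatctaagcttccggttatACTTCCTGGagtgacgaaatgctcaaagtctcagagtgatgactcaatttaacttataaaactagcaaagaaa
Slfn8 (chr11:83020811-83021060, minus strand): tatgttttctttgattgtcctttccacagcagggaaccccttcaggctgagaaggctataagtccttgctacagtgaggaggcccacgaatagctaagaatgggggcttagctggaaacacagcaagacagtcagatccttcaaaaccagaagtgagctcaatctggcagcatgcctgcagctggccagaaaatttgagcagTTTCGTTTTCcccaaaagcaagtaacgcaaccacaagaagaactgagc
Slfn9 (chr11:82991831-82992080, minus strand): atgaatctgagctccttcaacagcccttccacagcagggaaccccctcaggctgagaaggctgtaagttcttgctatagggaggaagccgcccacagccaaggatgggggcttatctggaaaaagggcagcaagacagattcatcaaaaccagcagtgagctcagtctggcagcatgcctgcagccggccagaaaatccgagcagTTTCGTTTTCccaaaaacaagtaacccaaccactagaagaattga
The windows of Slfn8 and Slfn9 were near copies of each other, with 89.2% of 223 aligned bases identical.

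The long members carried the core of an interferon-stimulated response element (ISRE), searched on both strands as GAAA, any 2 bases and GAAA. It began at position -155 in Slfn5, -48 in Slfn8 and -45 in Slfn9, and it was present in 2.98% of all windows. The short and intermediate members had no match to these letters. The IRF motif AANNGAAA was present in all 8 member windows and in 21.3% of all windows. It lies wholly within the ISRE core, so the 4 member windows with that core match it by construction. The 2 windows of Slfn8 overlap and hold the same site, so the 8 windows are not independent. The IRF motif and the run of 9 bases were chosen as search terms after the member sequences had been read. The NF-kB pattern of GGG, any 5 bases and CC matched Slfn1 and Slfn9, against 45.8% of all windows. The ETS and PU.1 core GAGGAAG matched Slfn9 against 10.6% of all windows. A match is a likeness of letters and says nothing about binding.

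**Figure D1:**
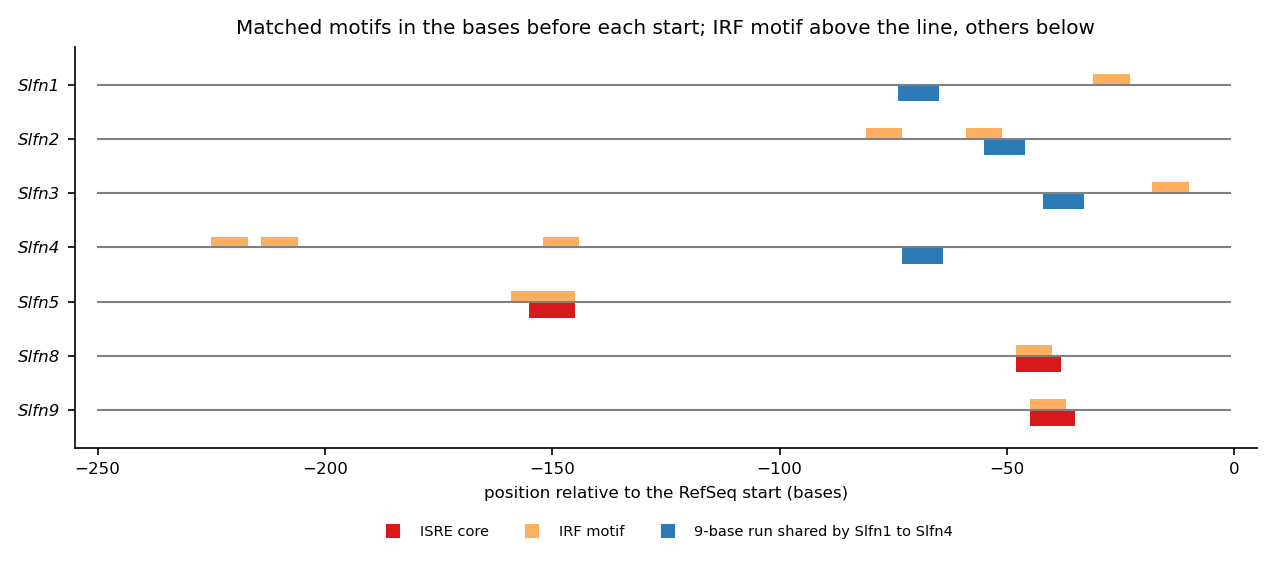
Places of matched motifs in the 250 bases before the RefSeq start of each gene (x axis, bases from the start), with the IRF motif drawn above the line and the ISRE core and the 9-base run shared by Slfn1, Slfn2, Slfn3 and Slfn4 below it. The run lies between -74 and -34 in the short and intermediate members, and the ISRE core is seen in Slfn5, Slfn8 and Slfn9.

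The sum of gene counts per library ran over 19.3 to 29.9 M (experiment 1) and 14.5 to 17.9 M (experiment 2). Levels are given as CPM (counts scaled per M counts of the library) after TMM scaling, and replicates varied around their group by 6.79% (experiment 1) and 10.6% (experiment 2) beyond counting error, as the common biological coefficient of variation of the fit. All 10 macrophage markers reached 1 CPM in every group, with a summed level of 14640 to 29360 CPM per library. In experiment 1, replicate 1 of Dex + LPS and replicate 1 of Dex + dBRD9 + LPS stood apart from their groups. Their deviation from the group mean ran with transcript length at Spearman -0.678 and -0.513. Some of the results that use them, not all, are also given without them. In dBRD9 + LPS this trend was -0.328, 0.426 and -0.0738. By chi-square per degree of freedom between counts, replicate 1 of Dex + dBRD9 + LPS lay at 12.4 and 12.8 from its group. Vehicle replicate 3 lay at 11.4 from both other vehicle libraries, which lay at 2.36 from each other. In experiment 2 the trend with transcript length was -0.629 and 0.629 in the vehicle libraries, 0.57 and -0.57 in Dex + IFNγ + LPS and -0.29 and 0.29 in IFNγ + LPS. It was 0.0838 or less in size in the groups with dBRD9. With 2 libraries a group the deviations mirror each other, so which library stood apart cannot be told. Reads of near-identical copies may be split among these genes: 0.606% (Slfn1) to 16% (Slfn3) of the 50-base stretches of the member transcripts also occurred in another gene, with Slfn10-ps the main partner of Slfn8 and Slfn9 and with Slfn3 and Slfn4 sharing stretches with each other. The antisense gene Slfn5os, which overlaps Slfn5, was counted 0 times in experiment 1 and 44 times in experiment 2, and whether the counting used strand is not given in the sources used here. Of the other Schlafen loci, Slfn10-ps held 12872 counts over the 21 libraries of experiment 1, while Slfn14 held 2 and Slfnl1, on chromosome 4, held 4.

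The family differed widely in level. Per kilobase of exon, after LPS alone in experiment 1, Slfn2 stood at 1100 ± 25.8 CPM per kb (SD, n = 3), Slfn8 at 129 ± 2.32 and Slfn5 at 128 ± 4.42. The other members were lower, with 23.4 ± 0.610 CPM per kb for Slfn9, 6.77 ± 0.108 for Slfn3, 4.33 ± 0.233 for Slfn1 and 1.92 ± 0.110 for Slfn4. Slfn2 thus made up the greater part of the family's summed level per kb in every group, from a mean of 78.9% after LPS to 92.3% after iBRD9 + LPS in experiment 1. After IFNγ + LPS in experiment 2 the share of Slfn2 was 66.2%, that of Slfn5 18.7% and that of Slfn8 10.4%, with Slfn4 at 9.18 ± 0.290 CPM per kb (SD, n = 2). Vehicle libraries held few reads of Slfn1 and Slfn4: 4 to 9 counts of Slfn1 and 15 to 20 counts of Slfn4 per library in experiment 1, so that both are measured with a wide counting error there.

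**Figure D2:**
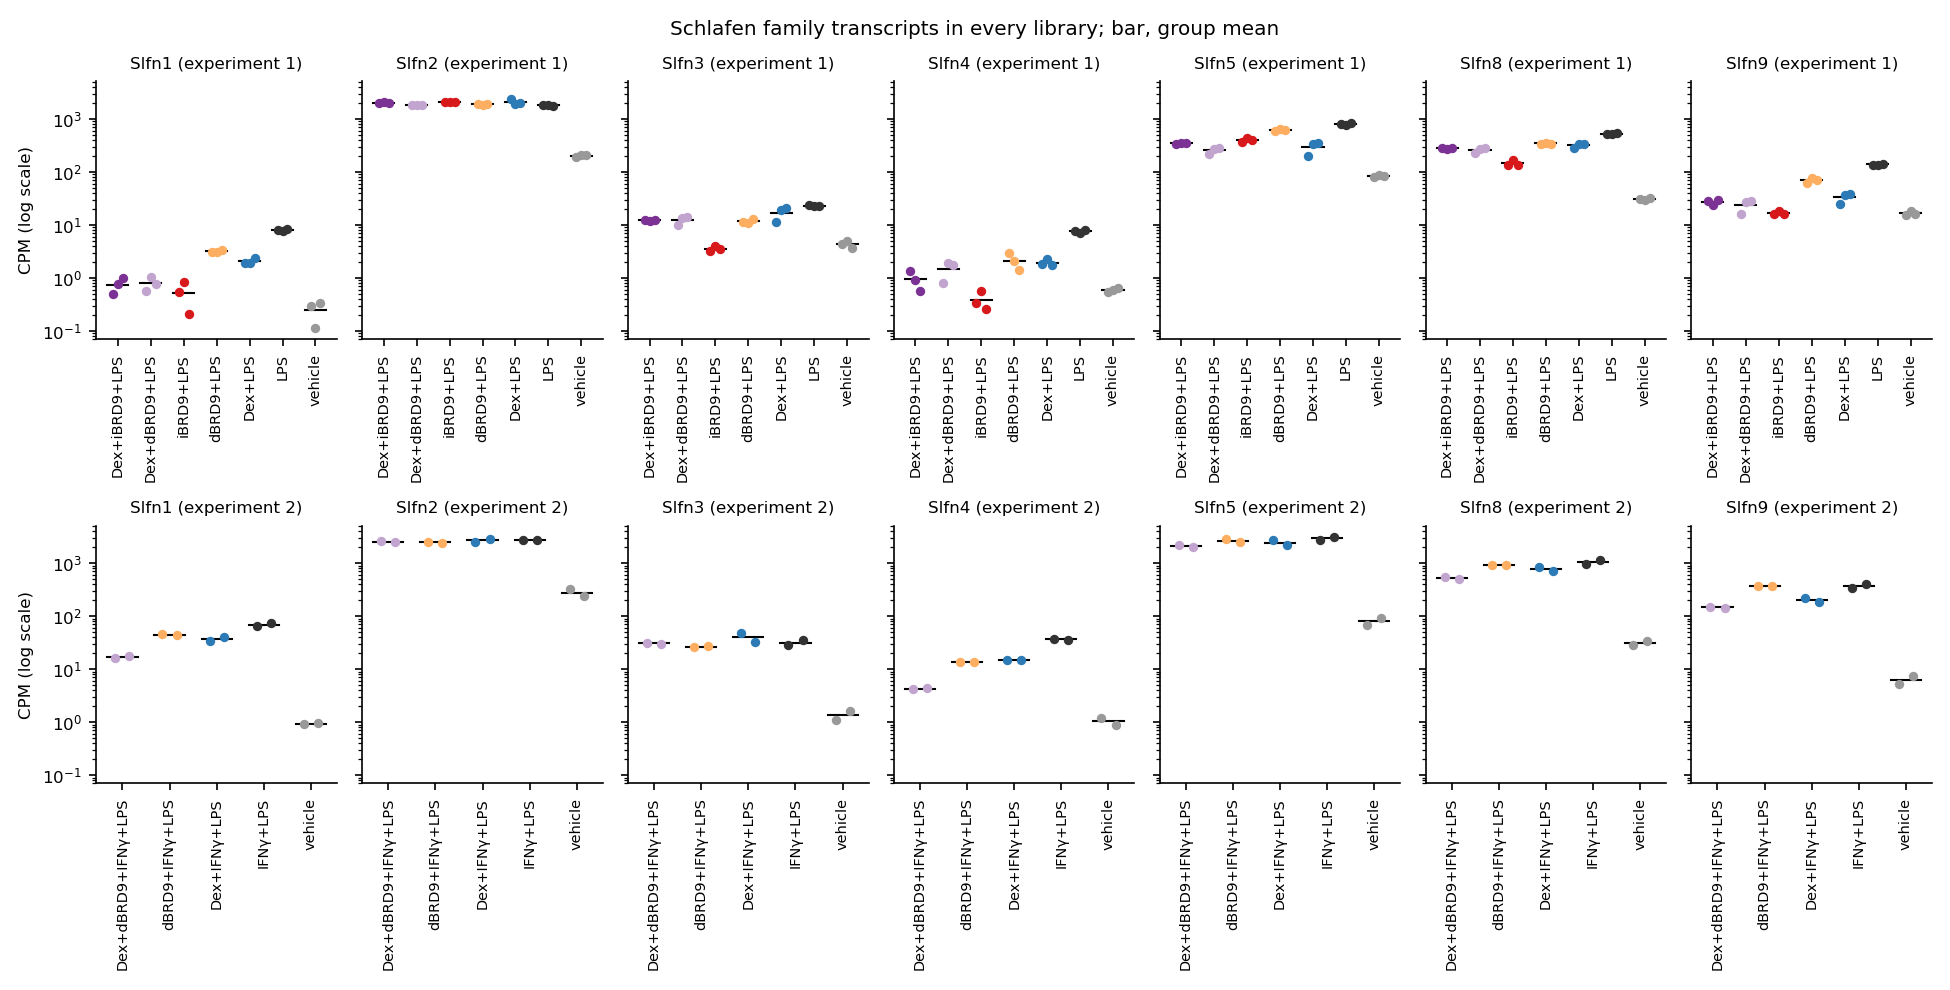
CPM (log scale, y axis) of each of the 7 genes in every library, with experiment 1 above and experiment 2 below, groups along the x axis, points for libraries and bars for group means. In experiment 1 every stimulated group of Slfn2 lies between 1791 and 2345 CPM. Slfn1 and Slfn4 lie below 1 CPM in every library of iBRD9 + LPS and of vehicle in that experiment.

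LPS raised the whole family. Slfn4 stood at 7.64, 7.16 and 8.03 CPM after LPS, against 0.546, 0.582 and 0.635 CPM with vehicle, and Slfn1 at 8.05, 7.65 and 8.52 CPM after LPS, against 0.291, 0.116 and 0.336 CPM with vehicle. No library of the 2 groups overlapped for any of the 7 genes, though such overlap was not counted over all genes. In edgeR's quasi-likelihood test with Benjamini-Hochberg adjustment over 12662 genes, 7 of 7 members rose, where 36.1% of all genes tested were called higher. Slfn1, of the short group, rose most, by 5.05 ± 0.276 on the log2 scale (estimate ± SE, adjusted p = 1.1e-13), and Slfn8, of the long group, followed at 4.10 ± 0.0956 (adjusted p = 1.1e-20). Slfn4 rose by 3.68 ± 0.274 on the log2 scale (adjusted p = 3.1e-11). The remaining 4 rose by 2.38 (Slfn3) to 3.26 (Slfn5), with Slfn2 at 3.19 and Slfn9 at 3.06.

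IFNγ + LPS gave the same direction in experiment 2, where 7 of 7 rose and 32.8% of 13313 genes were called higher. Slfn9 stood at 342 and 398 CPM after IFNγ + LPS, against 5.19 and 7.57 CPM with vehicle. Slfn1 rose by 6.18 ± 0.187 (adjusted p = 6e-14), Slfn9 by 5.84 ± 0.171 (adjusted p = 4.2e-14) and Slfn5 by 5.19 ± 0.177 (adjusted p = 2.7e-13) on the log2 scale. Slfn2 rose least, by 3.29 ± 0.145 (adjusted p = 7.2e-12), and the values of the other 3 were 5.11 for Slfn4, 5.08 for Slfn8 and 4.51 for Slfn3. The experiments were counted and fitted apart and differ in stimulus and in vehicle libraries, so no test was made between them; set side by side, the log2 fold change of Slfn2 was 3.29 after IFNγ + LPS and 3.19 after LPS, and that of Slfn9 was 5.84 after IFNγ + LPS and 3.06 after LPS.

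The interferon pathway moved with the stimulus too. Of 21 genes that make, sense or relay interferon, 18 rose and 2 fell after LPS in experiment 1, with a median log2 fold change of 1.29, against -0.05 over all genes. They were led by Socs3, a feedback inhibitor of STAT signalling (11.28 ± 0.0762), Ifnb1, which encodes interferon β (10.14 ± 0.575), Socs1 (6.65 ± 0.118) and the ISG15 protease Usp18 (4.51 ± 0.161). After IFNγ + LPS, 17 of the 21 rose and 4 fell. All 20 genes of a list of interferon-induced genes rose in both experiments, with a median log2 fold change of 4.32 after LPS and 4.77 after IFNγ + LPS.

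Markers of other cell types were low beside macrophage markers, and some moved with the stimulus. Of 10 T and NK cell markers, 2 reached 1 CPM after LPS and 0 with vehicle, with summed levels of 13.2 to 14.8 CPM after LPS against 0.349 to 0.619 CPM with vehicle, while Cd3d, Cd3e and Cd3g were at 0 in most libraries and at most at 0.0912 CPM. Stromal markers summed to 29.8 to 33.0 CPM after LPS against 0.378 to 0.546 CPM with vehicle, with 1 of 8, Pdgfrb, at 1 CPM or more and Dcn, Lum and Pdgfra at 0.229 CPM or less. Dendritic cell markers summed to 7.27 to 8.14 CPM after LPS against 0.747 to 1.46 CPM with vehicle, with 2 of 8 at 1 CPM or more after LPS and 0 with vehicle. Neutrophil markers summed to 17.4 to 24.5 CPM after LPS against 11.2 to 13.6 CPM with vehicle, with 5 of 10 at 1 CPM or more after LPS and 4 of 10 with vehicle. B cell markers went the other way, with 22.4 to 23.6 CPM after LPS against 55.1 to 58.8 CPM with vehicle in experiment 1 and 12.3 to 16.98 CPM after IFNγ + LPS against 36.0 to 36.9 CPM with vehicle in experiment 2. Ighm made up most of that sum, Cd22 was the other B cell marker of 8 at 1 CPM or more in experiment 1, and Pax5 was at 0.0483 CPM or less in that experiment. In experiment 2 T and NK cell markers summed to 97.9 to 109.8 CPM after IFNγ + LPS against 0.151 to 0.257 CPM with vehicle, with 2 of 10 at 1 CPM or more (Lck and Cd247) against 0, and with Cd3e and Cd3g at 0 in every library. Stromal markers there summed to 62.1 to 68.5 CPM after IFNγ + LPS against 50.8 to 50.9 CPM with vehicle. Of these, Col1a1, Col1a2 and Col3a1 were at 4.01 CPM or more in every library of experiment 2. The part of these markers in the result was not tested, and in bulk libraries fewer cells of a type and less RNA per cell cannot be told apart.

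Dexamethasone under LPS lowered 6 members and left the most abundant one slightly higher. Slfn9 stood at 24.5, 37.7 and 38.6 CPM in Dex + LPS libraries, against 138, 137 and 144 CPM in LPS libraries. Slfn4 stood at 1.82, 2.31 and 1.74 CPM in Dex + LPS libraries, against 7.64, 7.16 and 8.03 CPM in LPS libraries. Slfn2 stood at 2345, 1963 and 1971 CPM in Dex + LPS libraries, against 1876, 1825 and 1791 CPM in LPS libraries. For all 7 genes the groups did not overlap, with Slfn2 alone higher after Dex, and overlap over all genes was not counted.

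In the test 6 of 7 members fell and 1 rose, where 27.5% of all genes were called lower and 27.9% higher. Slfn9 fell by 2.06 ± 0.154 on the log2 scale (adjusted p = 9.5e-11), Slfn4 fell by 1.97 ± 0.239 (adjusted p = 2.9e-07) and Slfn1 fell by 1.94 ± 0.203 (adjusted p = 2.6e-08). Slfn5 fell by 1.47 ± 0.131 and Slfn8 fell by 0.71 ± 0.083. The change of Slfn3, -0.45 ± 0.154 (adjusted p = 0.015), did not pass without the Dex + LPS library that stood apart (-0.22, adjusted p = 0.092) or with only these 2 groups in the fit (-0.45, adjusted p = 0.092), which leaves 5 of 7 lower in each case (range of adjusted p over all alternatives, 4.6e-05 to 0.092). The rise of Slfn2 was 0.19 ± 0.0528 (adjusted p = 0.0035) and 0.11 without that library (adjusted p = 0.016), and with only these 2 groups in the fit it missed the threshold at 0.067, the highest of a range of 0.00016 to 0.067.

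All members still lay above vehicle when LPS was given with dexamethasone. In Dex + LPS libraries 7 of 7 members lay above vehicle, where 36.9% of all genes were called higher, by log2 fold changes of 1.00 (Slfn9) to 3.39 (Slfn2). The level above vehicle amounted to 13.8% of the LPS rise for Slfn9, 19.5% for Slfn4, 23.5% for Slfn1, 28.7% for Slfn5, 58.5% for Slfn8, 67% for Slfn3 and 116% for Slfn2. These values share the Dex + LPS libraries with the comparison against LPS. Of the interferon pathway genes, 13 of 21 fell and 6 rose in Dex + LPS against LPS libraries, led by Ifnb1 (-3.55 ± 0.293), Socs1 (-2.42 ± 0.0826), Usp18 (-2.27 ± 0.140) and Stat2 (-1.92 ± 0.0788), and all 20 interferon-induced genes fell, with a median of -1.98, against 0.01 over all genes. Neutrophil markers summed to 11.5 to 13.96 CPM after Dex + LPS against 17.4 to 24.5 CPM after LPS, with 3 of 10 at 1 CPM or more against 5. T and NK cell markers summed to 2.69 to 3.56 CPM after Dex + LPS against 13.2 to 14.8 CPM after LPS, with 1 of 10 at 1 CPM or more against 2, and stromal markers to 37.8 to 47.5 CPM against 29.8 to 33.0 CPM, Pdgfrb again alone. What part these markers have in the result was not tested.

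In experiment 2 dexamethasone lowered 4 members under IFNγ + LPS. Slfn4 stood at 14.7 CPM in both Dex + IFNγ + LPS libraries, against 37.2 and 35.6 CPM in IFNγ + LPS libraries. Slfn4 fell by 1.31 ± 0.139 on the log2 scale (adjusted p = 4e-06), Slfn1 fell by 0.89 ± 0.127 (adjusted p = 9.1e-05), Slfn9 fell by 0.85 ± 0.133 (adjusted p = 0.00022) and Slfn8 fell by 0.46 ± 0.116 (adjusted p = 0.01), so 4 of 7 against 9.21% of all genes called lower. None of the 7 was called higher by edgeR, against 10.7% of all genes. The call of Slfn8 was lost without replicate 2 of either group. Slfn5 (-0.26), Slfn2 (-0.03) and Slfn3 (0.36) did not pass, at adjusted p of 0.25, 0.91 and 0.17. Slfn3 was the member with the widest spread, at 48.5 and 32.8 CPM in Dex + IFNγ + LPS libraries, against 28.3 and 35.4 CPM in IFNγ + LPS libraries, and without replicate 2 of Dex + IFNγ + LPS its log2 fold change was 0.61 (adjusted p = 0.02, over a range of 0.02 to 0.96). Of the interferon-induced genes 19 of 20 fell, with a median of -0.67, and of the interferon pathway genes 8 of 21 fell and 2 rose, with Ifnb1 at -3.98 ± 0.490. Neutrophil markers summed to 12.52 to 18.4 CPM after Dex + IFNγ + LPS against 35.9 to 37.9 CPM after IFNγ + LPS, with 3 of 10 at 1 CPM or more against 4 and Ly6g at 0 in every library. T and NK cell markers summed to 60.0 to 68.4 CPM after Dex + IFNγ + LPS against 97.9 to 109.8 CPM after IFNγ + LPS, with 2 of 10 at 1 CPM or more in both groups. Stromal markers, 4 of 8 at 1 CPM or more in both groups, summed to 40.1 to 47.4 CPM against 62.1 to 68.5 CPM. The part of these markers in the result was not tested.

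**Figure D3:**
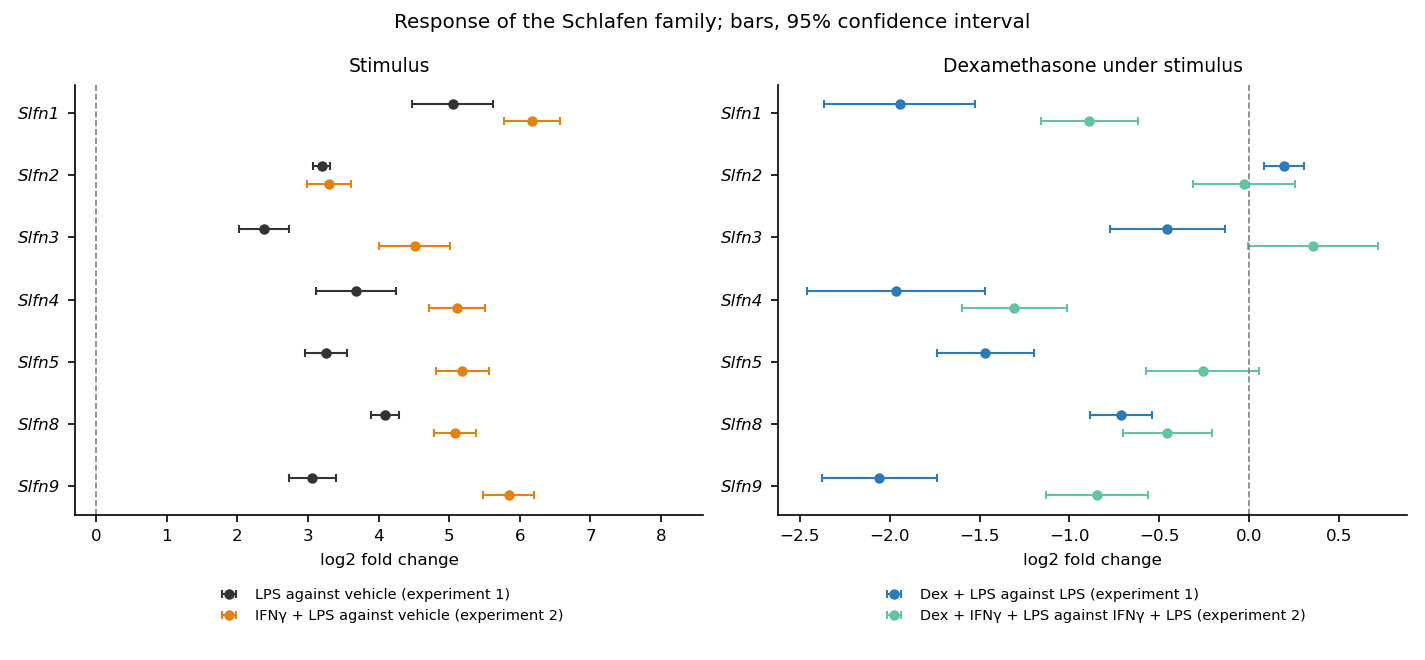
Log2 fold change (x axis) of each gene with its 95% confidence interval, for the stimulus against vehicle on the left and for Dex under the stimulus on the right, in experiment 1 and experiment 2. All 14 stimulus values lie between 2.38 and 6.18, and Slfn2 lies at 0.19 and -0.03 with Dex.

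With the BRD9 inhibitor, Slfn4, Slfn1, Slfn9 and Slfn3 lay near their level in unstimulated cells despite LPS. Slfn4 stood at 0.339, 0.580 and 0.257 CPM in iBRD9 + LPS libraries (10, 14 and 6 counts), against 7.64, 7.16 and 8.03 CPM in LPS libraries. Slfn1 stood at 0.542, 0.828 and 0.214 CPM in iBRD9 + LPS libraries, against 8.05, 7.65 and 8.52 CPM in LPS libraries. Every iBRD9 + LPS library lay far below every LPS library for both genes. Slfn9 stood at 16.4, 18.4 and 15.99 CPM in iBRD9 + LPS libraries, against 138, 137 and 144 CPM in LPS libraries, and Slfn3 stood at 3.19, 4.06 and 3.505 CPM in iBRD9 + LPS libraries, against 23.5, 22.7 and 23.1 CPM in LPS libraries.

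On the log2 scale Slfn4 was at -4.27 ± 0.304 in iBRD9 + LPS against LPS libraries, 126th from the lowest of 12662 genes. Slfn1 was at -3.91 ± 0.247, Slfn9 at -3.05 ± 0.163, Slfn3 at -2.69 ± 0.182, Slfn8 at -1.84 ± 0.0855 and Slfn5 at -1.01 ± 0.129. Slfn2 was at 0.18 ± 0.0528, with 2060 to 2097 CPM in iBRD9 + LPS libraries, against 1791 to 1876 CPM in LPS libraries. At least 2-fold lower were 6 of 7 members, with Slfn5 just past that bound at 2.02-fold, where 13.5% of all genes were at least 2-fold lower. This contrast was used to choose Slfn4, and its counts are a description.

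With the BRD9 degrader, Slfn4 was again the lowest of the family relative to LPS. Slfn4 stood at 2.92, 2.10 and 1.40 CPM in dBRD9 + LPS libraries, against 7.64, 7.16 and 8.03 CPM in LPS libraries. Its log2 fold change was -1.82 ± 0.235, 82nd from the lowest of 12662 genes. Slfn1 followed at -1.33 ± 0.190, then Slfn9 at -0.996 ± 0.146, Slfn3 at -0.95 ± 0.159, Slfn8 at -0.60 ± 0.0828 and Slfn5 at -0.36 ± 0.128. Slfn2 was at 0.04 ± 0.0528 and its libraries overlapped, with 1850 to 1922 CPM after dBRD9 + LPS and 1791 to 1876 CPM after LPS. Of the 7 members 2, Slfn4 and Slfn1, were at least 2-fold lower, where 3.08% of all genes were. Slfn9 lay just short of that bound at 1.995-fold. Slfn4 was chosen for its values with BRD9 compounds, so this count and the rank of Slfn4 are a description. Both compounds were set against the same LPS libraries.

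The interferon pathway and several cell markers moved in the same libraries. Of 20 interferon-induced genes, 20 fell after iBRD9 + LPS, where 30.5% of all genes were called lower, and 18 fell after dBRD9 + LPS, where 9.97% were. Their median log2 fold change against LPS was -2.04 with iBRD9 and -0.75 with dBRD9, beside 0.01 and 0 over all genes. Of the 21 pathway genes, 12 fell and 5 rose after iBRD9 + LPS (31.4% of all genes were called higher), led by Ifnb1 (-3.75 ± 0.288), Usp18 (-2.70 ± 0.142) and the transcription factors Irf7 (-2.02 ± 0.123) and Stat2 (-1.93 ± 0.0785). After dBRD9 + LPS 9 fell and 4 rose (6.64% of all genes were called higher), and Ifnb1 was at -1.08 ± 0.221. Neutrophil markers summed to 0.983 to 2.37 CPM after iBRD9 + LPS and to 19.5 to 22.0 CPM after dBRD9 + LPS, against 17.4 to 24.5 CPM after LPS, with 0 of 10 at 1 CPM or more after iBRD9 + LPS, 4 after dBRD9 + LPS and 5 after LPS. The markers at 1 CPM or more were S100a8, S100a9, Ngp, Ltf and Camp, while Ly6g, Mpo, Elane, Retnlg and Cxcr2 were at 0.374 CPM or less in every library of experiment 1. T and NK cell markers summed to 1.02 to 1.95 CPM after iBRD9 + LPS and 11.5 to 16.8 CPM after dBRD9 + LPS, against 13.2 to 14.8 CPM after LPS, with 1, 2 and 2 of 10 at 1 CPM or more. Stromal markers, of which Pdgfrb alone reached 1 CPM, summed to 0.855 to 1.93 CPM after iBRD9 + LPS and 10.8 to 12.1 CPM after dBRD9 + LPS, against 29.8 to 33.0 CPM after LPS, and dendritic cell markers to 1.71 to 2.32 CPM and 6.76 to 9.03 CPM, against 7.27 to 8.14 CPM. What part these markers have in the result was not tested.

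Part of the family was still above vehicle when LPS was given with the inhibitor. Of the 6 members tested, 4 were called higher in iBRD9 + LPS than in vehicle libraries and 0 lower by edgeR, where 37% of all genes were called higher and 35.6% lower. Slfn2 was at 3.37 ± 0.0582 on the log2 scale (adjusted p = 4.3e-23), Slfn8 at 2.25 ± 0.0904 (adjusted p = 3.5e-16) and Slfn5 at 2.24 ± 0.135 (adjusted p = 7.5e-13). Slfn1, at 1.14 ± 0.434 (adjusted p = 0.023), rests on 5 to 20 counts per iBRD9 + LPS library and 4 to 9 per vehicle library, its groups overlapped, and its call was lost without replicate 1 or 2 of iBRD9 + LPS or replicate 2 of vehicle (adjusted p of 0.051, 0.18 and 0.14, over a range of 0.0024 to 0.18), with library totals alone (0.11) and with limma (0.052).

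Slfn9 and Slfn3 did not pass, with log2 fold changes of 0.02 (95% confidence interval -0.33 to 0.37, adjusted p = 0.94) and -0.32 (-0.75 to 0.12, adjusted p = 0.18). Slfn3 was called lower under 4 alternatives and Slfn9 under 1, and for Slfn3 this gives a range of adjusted p from 0.0036 to 0.49. Slfn4 was at -0.58 (-1.51 to 0.34), and without replicate 2 or 3 of iBRD9 + LPS this value was -0.94 or -0.37. With the degrader the 6 tested members all lay above vehicle, where 35.7% of all genes were called higher, by log2 fold changes of 1.43 (Slfn3) to 3.72 (Slfn1), and Slfn4 was at 1.86 ± 0.327. The level above vehicle, as a share of the LPS rise, was 0.206% for Slfn9 and 43.6% for Slfn5 after iBRD9 + LPS, and 43.4% for Slfn9 and 75.1% for Slfn5 after dBRD9 + LPS.

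**Figure D4:**
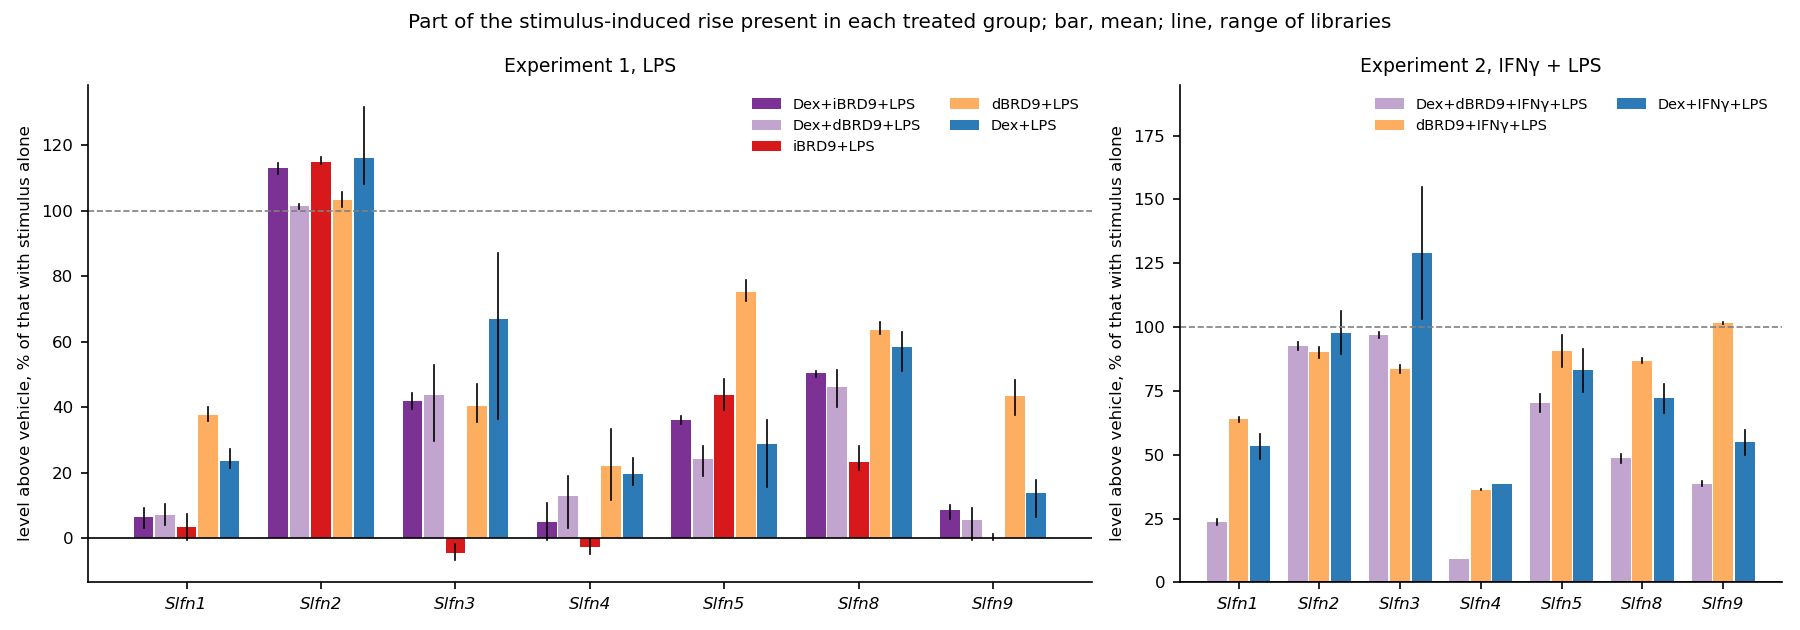
Level above vehicle in each treated group as a percentage of that with the stimulus alone (y axis), for each gene, with bars for group means and lines for the range of libraries; experiment 1 is on the left and experiment 2 on the right. Slfn2 lies at 101% to 116% in experiment 1, while Slfn4 lies between -2.79% and 22.1%.

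Set directly against each other, at doses that differ between the compounds, iBRD9 + LPS libraries lay below dBRD9 + LPS libraries in 6 of 7 members, without overlap. How many of all genes lay so was not counted. Of the 7, 5 were at least 2-fold lower, where 10.8% of all genes were. The log2 fold changes were -2.58 ± 0.278 for Slfn1, -2.44 ± 0.366 for Slfn4, -2.05 ± 0.162 for Slfn9, -1.74 ± 0.193 for Slfn3, -1.24 ± 0.0845 for Slfn8 and -0.65 ± 0.128 for Slfn5. Slfn2 was at 0.14 ± 0.0528, with its iBRD9 + LPS libraries above those of dBRD9 + LPS. Both arms are libraries behind the choice of Slfn4, so these values are a description.

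When a compound was given with dexamethasone and LPS, Slfn1 was the member farthest below the level with dexamethasone and LPS alone. Slfn4 stood at 1.35, 0.926 and 0.562 CPM in Dex + iBRD9 + LPS libraries and at 0.805, 1.93 and 1.73 CPM in Dex + dBRD9 + LPS libraries, against 1.82, 2.31 and 1.74 CPM in Dex + LPS libraries. Its log2 fold change was -1.04 ± 0.330 with iBRD9 and -0.40 ± 0.294 with dBRD9, and the value with dBRD9 was -0.08 without the Dex + dBRD9 + LPS library that stood apart. Slfn1 was at -1.46 ± 0.294 with iBRD9 and -1.38 ± 0.281 with dBRD9, and in neither case did its libraries overlap with those of Dex + LPS. Its value with dBRD9 was -1.17 without the Dex + dBRD9 + LPS library that stood apart and -1.65 without replicate 2 of that group. The Dex + LPS libraries are shared by both comparisons. The other members lay between -0.46 (Slfn3) and 0.24 (Slfn5) with iBRD9 and between -0.51 (Slfn9) and -0.17 (Slfn5) with dBRD9, and Slfn5 with iBRD9 was at 0.02 without replicate 1 of Dex + LPS. At least 2-fold lower were 2 of 7 members with iBRD9, where 4.56% of all genes were, and 1 of 7 with dBRD9, where 2.46% were. Slfn4, the gene behind the choice, is among those with iBRD9, so these counts are a description. Neutrophil markers summed to 4.96 to 6.997 CPM after Dex + iBRD9 + LPS and 13.01 to 14.97 CPM after Dex + dBRD9 + LPS, against 11.5 to 13.96 CPM after Dex + LPS, with 3 of 10 at 1 CPM or more in each group. Stromal markers, again Pdgfrb alone at 1 CPM or more, summed to 15.8 to 17.2 CPM after Dex + iBRD9 + LPS and 14.8 to 17.1 CPM after Dex + dBRD9 + LPS, against 37.8 to 47.5 CPM after Dex + LPS. T and NK cell markers, 1 of 10 at 1 CPM or more in each group, summed to 1.65 to 2.72 CPM and 4.08 to 4.79 CPM, against 2.69 to 3.56 CPM. The part of these markers in the result was not tested.

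The interaction, the fold change of a compound with dexamethasone minus that without, compares the 2 settings. It contains the compound fold changes that placed Slfn4 among the most lowered genes, with their sign turned, so a gene chosen for a low value there leans to a positive interaction, and the values are a description. For iBRD9 the log2 values were 3.22 ± 0.497 for Slfn4, 2.75 ± 0.227 for Slfn9, 2.45 ± 0.429 for Slfn1, 2.23 ± 0.247 for Slfn3, 1.65 ± 0.118 for Slfn8 and 1.26 ± 0.182 for Slfn5. Slfn2 was at -0.22 ± 0.0747. A value of at least 1 was held by 6 of 7 members, where 10.4% of all genes had one. All 20 interferon-induced genes, a list set with earlier results of these data known, were called positive, with a median of 2.12, where 17.3% of all genes were. All of them also fell in iBRD9 + LPS against LPS, a value that enters the interaction with its sign turned. Cell markers moved in the same libraries: 4 of 5 neutrophil markers tested were called positive, with a median of 2.49, and Pdgfrb, the 1 stromal marker tested, was called positive at 3.07. What part these markers have in the result was not tested.

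For dBRD9 the interaction was at least 1 in 1 of 7 members, Slfn4, where 2.54% of all genes had such a value. Slfn4 was at 1.42 ± 0.381, Slfn3 at 0.52 ± 0.226, Slfn9 at 0.48 ± 0.218, Slfn8 at 0.30 ± 0.117, Slfn5 at 0.20 ± 0.181, Slfn2 at -0.22 ± 0.0747 and Slfn1 at -0.05 ± 0.318. Without both libraries that stood apart, Slfn4 was at 1.69, Slfn9 at 0.51 and Slfn3 at 0.43, and Slfn1 was at 0.11.

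**Figure D5:**
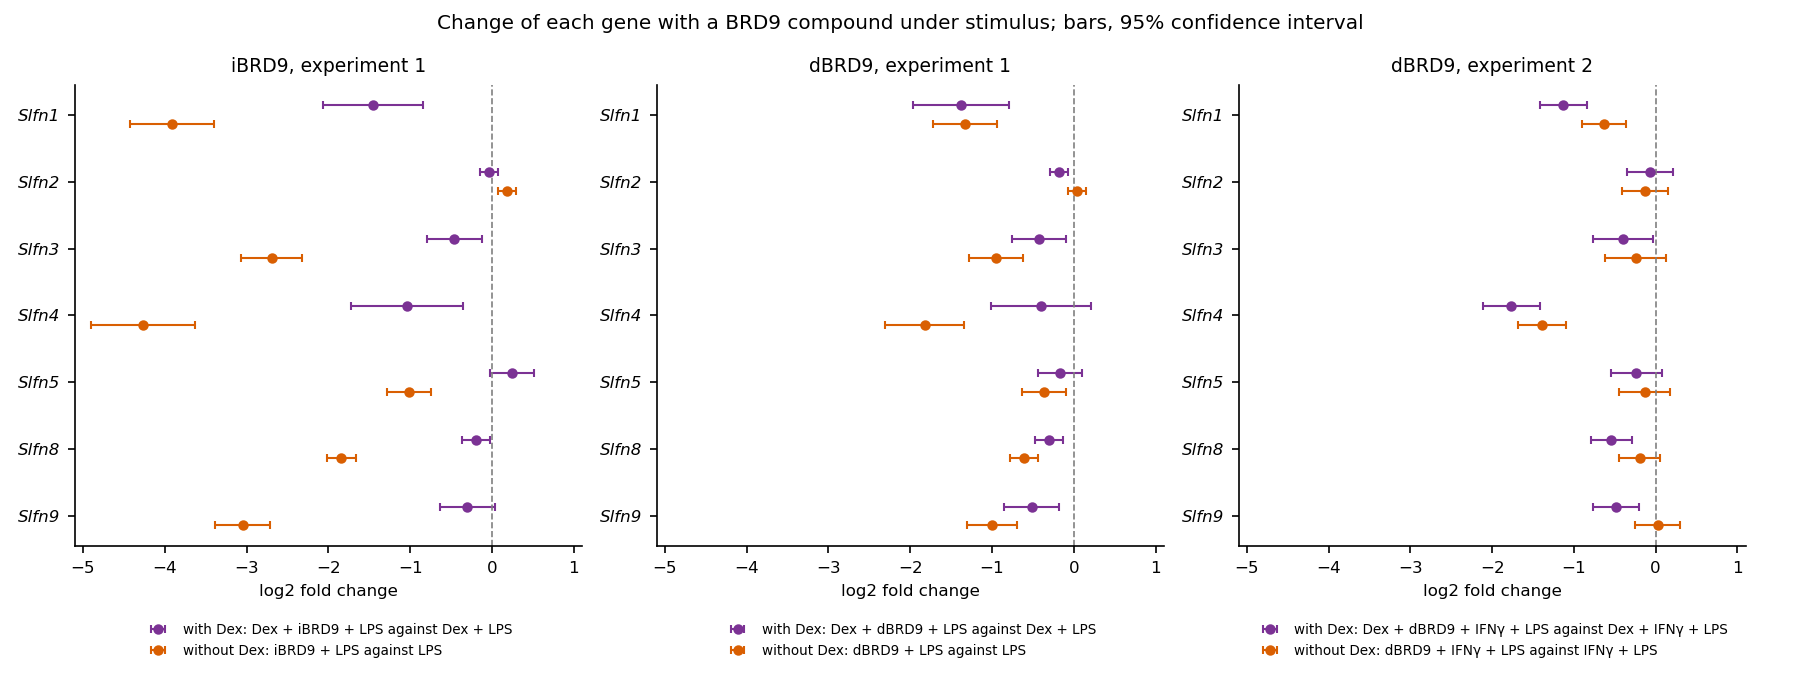
Log2 fold change (x axis) of each gene with a BRD9 compound, with its 95% confidence interval, in the presence of Dex (upper point) and in its absence (lower point), for iBRD9 and dBRD9 under LPS and for dBRD9 under IFNγ + LPS. The 2 points are far apart for iBRD9 in every gene but Slfn2, for example -1.04 and -4.27 in Slfn4.

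Under IFNγ + LPS the degrader left most of the family near its stimulated level, with Slfn4 and Slfn1 lower. Slfn4 stood at 13.96 and 13.85 CPM in dBRD9 + IFNγ + LPS libraries, against 37.2 and 35.6 CPM in IFNγ + LPS libraries, a log2 fold change of -1.39 ± 0.140 (188th from the lowest of 13313 genes, given as a description). Slfn1 stood at 45.3 and 44.0 CPM in dBRD9 + IFNγ + LPS libraries, against 64.2 and 74.3 CPM in IFNγ + LPS libraries, and was called lower at -0.63 ± 0.126 (adjusted p = 0.016). It was the 1 member of 6 tested that was called, where 1.01% of all genes were called lower. The call was lost when any 1 of the 4 libraries was left out, with adjusted p of 0.061 to 0.27.

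The other 5 lay between -0.24 and 0.02. Slfn9 was at 0.02 (95% confidence interval -0.26 to 0.30), with 375 and 376 CPM in dBRD9 + IFNγ + LPS libraries, against 342 and 398 CPM in IFNγ + LPS libraries. Of 20 interferon-induced genes 1 rose and 1 fell, with a median log2 fold change of 0.09 and 0.819% of all genes called higher, and of the 21 pathway genes none was called by edgeR. Neutrophil markers, 4 of 10 at 1 CPM or more in both groups, summed to 19.0 to 21.1 CPM after dBRD9 + IFNγ + LPS against 35.9 to 37.9 CPM after IFNγ + LPS. T and NK cell markers summed to 61.5 to 72.4 CPM after dBRD9 + IFNγ + LPS against 97.9 to 109.8 CPM after IFNγ + LPS, with 2 of 10 at 1 CPM or more in both groups. Stromal markers summed to 49.8 to 50.4 CPM against 62.1 to 68.5 CPM, with 3 and 4 of 8 at 1 CPM or more. The part of these markers in the result was not tested.

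Added to dexamethasone under IFNγ + LPS, the degrader gave the lowest stimulated group means of Slfn1, Slfn4, Slfn5, Slfn8 and Slfn9 in experiment 2. Slfn4 stood at 4.32 and 4.33 CPM in Dex + dBRD9 + IFNγ + LPS libraries, against 14.7 CPM in both Dex + IFNγ + LPS libraries, a log2 fold change of -1.76 ± 0.164. Slfn1 stood at 16.3 and 17.9 CPM in Dex + dBRD9 + IFNγ + LPS libraries, against 34.0 and 40.7 CPM in Dex + IFNγ + LPS libraries, and was called lower at -1.13 ± 0.136 (adjusted p = 0.00039). Slfn8 was called lower at -0.54 ± 0.117 (adjusted p = 0.03), so 2 of 6 tested, where 1.16% of all genes were called lower. The call of Slfn8 was lost with the replicate block (adjusted p = 0.065) and without any 1 of 3 of the 4 libraries, over a range of 0.00038 to 0.35. Slfn9, at -0.49 ± 0.134 (adjusted p = 0.095), did not pass, but it was called lower with DESeq2 (0.021), without the filter on low counts (0.0077) and with only these 2 groups in the fit (0.015), over a range of 0.0077 to 0.53. Of the rest, Slfn3 was at -0.40, Slfn5 at -0.23 and Slfn2 at -0.07.

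Of the level above vehicle with IFNγ + LPS, Dex + dBRD9 + IFNγ + LPS libraries held 9.26% for Slfn4 and 23.6% for Slfn1, against 38.7% and 53.3% in Dex + IFNγ + LPS libraries. The interaction of Dex and dBRD9 was called by edgeR for 0 of 6 members in experiment 2, where 0% of all genes were called positive and 0.00751% negative; its values ran from -0.51 (Slfn9) to 0.07 (Slfn2), and Slfn4 was at -0.38 ± 0.216. Neutrophil markers summed to 16.5 to 18.9 CPM after Dex + dBRD9 + IFNγ + LPS against 12.52 to 18.4 CPM after Dex + IFNγ + LPS, with 3 of 10 at 1 CPM or more in both groups. T and NK cell markers summed to 44.2 to 45.2 CPM after Dex + dBRD9 + IFNγ + LPS against 60.0 to 68.4 CPM after Dex + IFNγ + LPS, without overlap and with 2 of 10 at 1 CPM or more in both groups. Stromal markers summed to 33.4 to 39.1 CPM against 40.1 to 47.4 CPM, with 3 and 4 of 8 at 1 CPM or more. The part of these markers in the result was not tested.

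Ordered by level, the groups of experiment 1 ran differently from gene to gene. Slfn1 ran from LPS through dBRD9 + LPS and Dex + LPS to Dex + dBRD9 + LPS, Dex + iBRD9 + LPS, iBRD9 + LPS and vehicle, and from Dex + dBRD9 + LPS on each neighbour overlapped the next. Slfn4 had LPS at the top without overlap, and every neighbouring pair below it overlapped. Slfn5 and Slfn8 kept vehicle below all other groups without overlap, but iBRD9 + LPS, at 400 ± 34.7 CPM in Slfn5 (SD, n = 3), lay above all groups with Dex there, and at 147 ± 20.7 CPM in Slfn8 it lay below them. For Slfn2, 6 stimulated groups lay between 1831 and 2093 CPM in the mean and vehicle at 200.2 ± 9.77 CPM.

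Across the 21 libraries of experiment 1, as a description over libraries that share groups and stimulus, log2(CPM + 1) of Slfn1 ran with that of Slfn9 at Pearson r = 0.963 and with that of Slfn4 at 0.925. Slfn2 ran with Slfn4 at 0.308 and with Slfn8 at 0.888. In experiment 2 the same pairs ran at 0.983, 0.946, 0.801 and 0.979. Among 7453 other genes with a mean of at least 10 CPM, those most like Slfn4 included Gvin1 (0.948), Rnf135 (0.934), the DNA sensor Cgas (0.926) and Phf11b (0.925). Over the 10 libraries of experiment 2 these ran with Slfn4 at 0.840, 0.686, 0.862 and 0.912. Those most like Slfn2 were Nfkbia, which encodes the NF-kB inhibitor IκBα (0.998), Ehd1 (0.997) and the chemerin receptor Ccrl2 (0.996), at 0.993, 0.995 and 0.991 in experiment 2. Slfn1 was most like Phf11d (0.969), Batf2 (0.965) and Gvin1 (0.963), and Slfn9 most like Gvin1 (0.985), Setdb2 (0.974) and Phf11d (0.972). Slfn8 was most like Tiparp (0.991), the RNA sensor gene Ifih1 (0.988) and Ifi205 (0.988), and Slfn5 most like Helz2 (0.991), Vezf1 (0.980) and Cmpk2 (0.980). Slfn3 was most like Tbc1d23 (0.963), Abcc5 (0.956) and Klf7 (0.954), which ran with it at 0.671, 0.402 and 0.906 in experiment 2.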

How the data were processed

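RNA-seq libraries were made with standard Illumina protocols per the labels, and the deposited files hold raw counts per gene identifier, made by the authors with fastp and STAR on mm10, with DESeq2 also named, per the submitters' processing notes. The annotation, strand setting and read length are not stated in any source used here. Both count tables were read through the library names in their columns, with 0 columns left out, and identifiers were matched to symbols in a table of Ensembl gene names for 34490 of 35275 and 54409 of 54532 identifiers.

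Each experiment was fitted alone with edgeR 4.0.16 (R 4.3.3): genes passing filterByExpr (minimum count 10, minimum total count 15), TMM scaling, 1 coefficient per group, a quasi-likelihood F test and Benjamini-Hochberg adjustment over all genes tested, called at an adjusted p under 0.05. The residual degrees of freedom were 14 and 5. The SE is the log2 fold change divided by the root of F, and confidence intervals are at 95%. The interaction is the fold change of a compound with Dex minus that without. limma 3.58.1 and DESeq2 1.42.0 served as alternatives, and the fit was tested on simulated data. Levels per kb use the union of exons in GENCODE M21. The members, gene lists and tests were chosen with earlier results of these data known. Named genes are the members, up to 4 called interferon pathway genes with the largest change per comparison, and the 3 genes (5 for Slfn4) most like a member among those with at least 10 CPM. Some items that these rules cover are not reported here. Irf7 and Usp18 stand in both interferon lists. In experiment 1, same-numbered libraries deviated together in every pair (correlation of deviations from the group means over 0.1) in Dex + iBRD9 + LPS against Dex + LPS (0.112 to 0.243) and in Dex + dBRD9 + LPS against Dex + LPS (0.43 to 0.736), from the data and not from the labels. In experiment 2, with 2 libraries a group, that check has too few pairs, and the correlations ran from -0.213 to 0.26. A test planned for the compounds against each other and for the interactions of experiment 1 was replaced by a description, because these contain the fold changes that chose Slfn4.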

Additional observations from a re-analysis of the deposited data

How the results depend on the processing

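Of 1682 values recomputed for the members under an alternative, 1622 kept their side of the threshold or moved by less than the spread. A further 18 lost their call, 9 gained one and 33 moved by more than the spread. Slfn4 is left out of these totals in the contrasts of experiment 1 that were given without a test for any member. Its ranges there are given below. Of the called values 0 reversed, and a value without a call that changed sign was not counted as reversed. The counts of called members that moved were few, and the cause was not tested. With only the compared groups fitted, 0 members were higher in Dex + LPS against LPS and 5 instead of 6 were lower (Slfn3 lost its call). In iBRD9 + LPS against vehicle, 2 were lower with library totals alone and 1 without the filter on low counts, with only the compared groups, and without both libraries that stood apart. In experiment 2, leaving out 1 library gave 0 to 1 members higher with Dex, 0 to 0 lower with dBRD9 and 1 to 2 lower in Dex + dBRD9 + IFNγ + LPS against Dex + IFNγ + LPS. The log2 fold change of Slfn4 ranged over -4.63 to -4.06 in iBRD9 + LPS against LPS, over -1.39 to -0.76 in Dex + iBRD9 + LPS against Dex + LPS, and over -2.81 to -2.16 in iBRD9 + LPS against dBRD9 + LPS when 1 library was left out, and its interaction of Dex and iBRD9 ranged over 2.87 to 3.58. In the same way Slfn4 ranged over -2.11 to -1.59 in dBRD9 + LPS against LPS. It ranged over -0.66 to -0.08 in Dex + dBRD9 + LPS against Dex + LPS, and its interaction of Dex and dBRD9 over 1.16 to 1.74. With the replicate block, 1 member instead of 2 was lower in Dex + dBRD9 + IFNγ + LPS against Dex + IFNγ + LPS (Slfn8, adjusted p = 0.065), and the block changed no other call; the labels do not say that numbers pair libraries. In Dex + IFNγ + LPS against IFNγ + LPS same-numbered libraries deviated in opposite ways (-0.213), and the crossed pairing, chosen after seeing the data, changed no call. Scaling by library totals alone moved the median log2 fold change of all genes by more than 0.1 against vehicle, to -0.56 from -0.05 for LPS and to -0.76 from -0.11 for IFNγ + LPS. Among the members this scaling turned the sign of 4 values, none of them called by TMM: 1 was Slfn9 in iBRD9 + LPS against vehicle (0.02 by TMM, -0.36 by totals, adjusted p = 0.049), and the other three lay within 0.05 of 0. The 4 to 20 counts per library behind the lowest values of Slfn1 and Slfn4 limit what differences can be seen there, and intervals cover the spread between these libraries only.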
